A study of Mus musculus with 8 samples.

Results

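The non-opioid neuropeptide precursors described here were 10 genes: Cck, Nts, Gal, Sst, Npy, Tac1, Vip, Cartpt, Crh and Adcyap1. They were chosen by symbol, as the rows of the deposited count table that carried these names, and were 10 of the 18939 genes in the table. All 10 had reads in every library. The libraries held RNA purified by translating ribosome affinity purification (TRAP), in which ribosomes carrying an EGFP-tagged L10a protein are pulled down with antibodies against GFP. The mice were OPRM1cre X EGFP-L10a on a C57Bl/6J background, so the tag was limited to cells in which the Oprm1 locus had driven Cre. Cre sat behind a cleavable peptide in the Oprm1 locus, which encodes the mu-opioid receptor, and control and morphine mice alike carried both alleles. Tissue came from gross dissections aimed at the paraventricular nucleus of the thalamus (PVT), 2 dissections pooled per library, from mice aged 8 to 12 weeks when the experiment began. Control mice drank 0.2% saccharin, and morphine mice drank saccharin with morphine that reached 0.5 mg/ml, for 11 days. Each group had 4 libraries, 2 labelled male (control replicates 1 and 2, morphine replicates 3 and 4) and 2 labelled female (control replicates 5 and 6, morphine replicates 7 and 8).

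Neuropeptides are made as precursor proteins that enter the secretory pathway, are cut at basic residues by prohormone convertases, trimmed by carboxypeptidase E, and in many cases amidated at their C-terminus before release from dense-core vesicles. They act on G protein-coupled receptors of nearby cells. A ribosome-bound precursor RNA therefore reports on the cells that make a peptide and not on the peptidergic fibres that reach the PVT from elsewhere. Sst, Npy, Vip and Cck are known from GABAergic interneurons, Cck also from thalamic and telencephalic glutamatergic cells, Gal, Nts and Crh from the hypothalamus among other sites, and Tac1, Cartpt and Adcyap1 from several brain regions.

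The coding sequences show what the counted RNAs have in common beyond their names. In GENCODE transcripts (GRCm38), the 10 coding sequences ran from 97 codons (Npy) to 187 codons (Crh) and held 1 (Sst) to 8 (Adcyap1) places where 2 codons for lysine or arginine stood side by side, the usual cleavage signal. A glycine codon followed directly by 2 such basic codons, the classical signal for cleavage with amidation, was found in 7 of the 10 and was not found in Sst, Cartpt and Crh. These matches are letters in the sequence and not measured cleavage sites. Glycine followed by a single basic codon was not searched for, so the matches do not sort the members into amidated and other peptides. Stretches of 60 coding bases that end on the signal are given for the members whose levels are described most closely below, with the 9 bases of the signal in capitals. The Gal and Npy stretches run across an exon junction, with the intron left out of the sequence but inside the coordinates.
Cck, chr9:121490098-121490157, minus strand: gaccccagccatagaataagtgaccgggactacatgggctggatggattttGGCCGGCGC
Gal, chr19:3411592-3413298, minus strand: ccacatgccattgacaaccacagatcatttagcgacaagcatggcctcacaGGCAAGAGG
Npy, chr6:49823739-49827501, plus strand: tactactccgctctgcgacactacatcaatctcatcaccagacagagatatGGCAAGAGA
Vip, chr10:5644057-5644116, plus strand: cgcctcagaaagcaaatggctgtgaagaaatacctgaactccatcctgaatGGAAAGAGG

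The promoters of several members carry the letters of the cAMP response element, the site bound by CREB family factors, for which Sst and Vip are textbook targets. RefSeq windows of 300 bases (GRCm38.p6), from 250 bases before a transcription start to 50 after it, were matched for 9 members with 10 windows, Adcyap1 having 2. Crh had no window, so its promoter was not searched. The palindrome TGACGTCA was in the windows of Sst and Cartpt, against 1.79% of all 32851 windows. The 7-base form TGACGTC, searched on both strands and including the palindrome, was in those of Sst, Vip, Cartpt and Adcyap1, against 3.21% of windows. Its 5-base core TGACG, on either strand and including the longer forms, was in the windows of 8 of the 9 members, Npy being without it, against 20.8% of all windows. The 6 members whose core lies nearest upstream of the start are shown as 30 bases of the gene’s own strand, with the match in capitals. In GENCODE, transcripts of Sst, Cartpt and Tac1 start farther upstream and include their stretch in the first exon.
Sst, chr16:23890874-23890903, minus strand: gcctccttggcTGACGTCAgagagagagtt
Cartpt, chr13:99900777-99900806, minus strand: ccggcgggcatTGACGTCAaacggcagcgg
Vip, chr10:5639127-5639156, plus strand: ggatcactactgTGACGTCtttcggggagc
Adcyap1, chr17:93198914-93198943, plus strand: ggactaggatgcTGACGTCttttactgata
Cck, chr9:121495725-121495754, minus strand: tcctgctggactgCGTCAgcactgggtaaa
Tac1, chr6:7555005-7555034, plus strand: ggctctacaggctCGTCAcgcctgagataa
The match began 48 bases before the start in Sst, 112 in Cartpt, 79 in Vip, 91 in Adcyap1, 47 in Cck and 43 in Tac1. These letters describe the sequence, and no binding was measured.

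Libraries held 31151106 to 47582947 counts. Markers of the midline thalamus such as Gbx2 and Calb2 were present in every library (6 genes, summed CPM, that is counts scaled to library size, of 1924 to 2472 in controls and 1392 to 2598 in morphine), as was Oprm1, whose locus drives the tag (14.0 to 32.3 CPM). Oprm1 was at 25.3 ± 6.92 CPM in controls and 16.5 ± 1.95 CPM in morphine libraries (SD, n = 4; log2 fold change -0.62, SE 0.19, edgeR adjusted P = 0.207, DESeq2 adjusted P = 0.0623). Markers of other cells were present too. The 8 GABAergic markers summed to 1072 to 1436 CPM in controls and 771 to 1327 in morphine. The 7 telencephalic pyramidal markers summed to 100.4 to 358 against 288 to 607, and the 9 choroid plexus markers to 16.6 to 83.6 against 114 to 378. The library labelled female control replicate 5 carried 4 Y-linked genes at 28.7% to 35.8% of the male mean, so its labelled sex is in doubt. Control replicate 2 was the highest control library for 6 of the 10 members, as it was for 31.2% of all genes.

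None of the 10 members passed the test between morphine and control (edgeR quasi-likelihood test, adjusted P under 0.05 over all 18939 genes), a threshold that 0.195% of all genes passed. At an unadjusted P under 0.05 there were 3 members, Cck, Gal and Cartpt, against 12.1% of all genes. DESeq2 called 2 of the 10, Cck higher and Gal lower, where it called 3.11% of the genes it tested. By log2 fold change, 6 members lay above 0 and 4 below. The median over the members was 0.25, beside 0.0088 over all genes. Cck was the only member whose morphine libraries all lay above its control libraries, an order found for 3.34% of all genes, and no member had the opposite order, found for 3.21%. In bulk libraries, fewer cells of a type and less RNA per cell cannot be told apart.

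**Figure D1:**
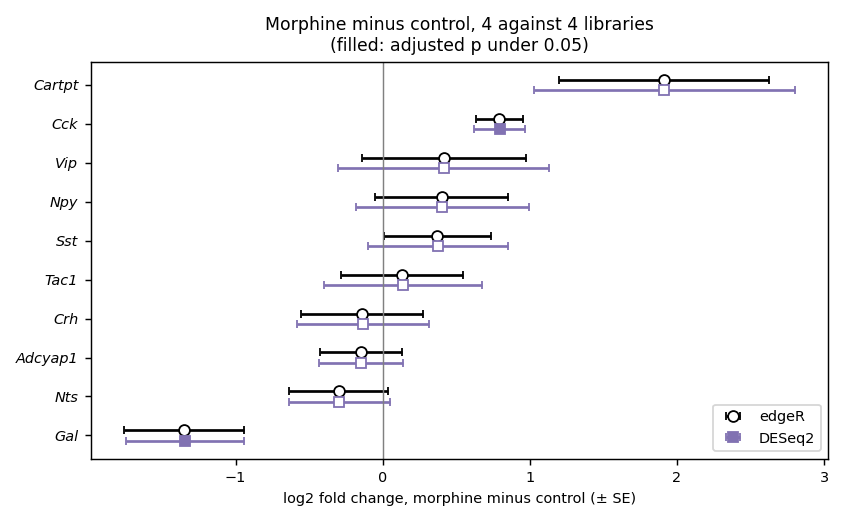
Log2 fold change of each precursor, morphine minus control, with its standard error, from edgeR (circles) and DESeq2 (squares), 4 against 4 libraries. Filled symbols have an adjusted P under 0.05, which only the DESeq2 values of Cck (0.79) and Gal (-1.34) have; Cartpt has the largest value and a wide error (1.91, SE 0.71).

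Cck, which encodes cholecystokinin, was the most abundant member and the one whose groups stood apart. The control libraries had 49.5, 74.4, 55.3 and 51.3 CPM (replicates 1, 2, 5 and 6), and the morphine libraries had 108.7, 90.2, 79.7 and 120.4 CPM (replicates 3, 4, 7 and 8). The lowest morphine library lay above the highest control library, and both groups spread by the same factor of 1.5 from lowest to highest. The means were 57.6 ± 11.4 and 99.8 ± 18.3 CPM (SD, n = 4 each), a 1.73-fold difference. The log2 fold change of 0.79 (SE 0.16) did not pass in edgeR (unadjusted P = 0.00037, adjusted P = 0.0735). It passed in DESeq2 (adjusted P = 0.00084). With sex in the edgeR model Cck passed narrowly (adjusted P = 0.0498), the only member among 0.581% of all genes. Without control replicate 2, the highest control, its log2 fold change was 0.94 and it passed as well (edgeR adjusted P = 0.0387), where 0.192% of genes did. Leaving out any of the other 7 libraries, it did not pass (edgeR adjusted P of 0.0836 to 0.219), and the lowest log2 fold change was 0.69, without morphine replicate 8.

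Some markers of other cells lay in the same direction as Cck and some in the other. All 7 telencephalic pyramidal markers and all 9 choroid plexus markers had log2 fold changes above 0. Their medians were 1.70 and 1.97. DESeq2 called 3 and 6 of them, and edgeR called 0 and 0 (4 and 8 at an unadjusted P under 0.05). The choroid plexus sums did not overlap between the groups, while Kcnj13, a choroid plexus potassium channel, was at 0 in control replicate 1. The pyramidal sums overlapped through control replicate 6 (358 CPM), whose Cck level of 51.3 CPM was among the lowest. All 6 midline thalamus markers had log2 fold changes below 0, and neither tool called any of them (1 lower in edgeR at an unadjusted P under 0.05). Of the 8 GABAergic markers 7 were below 0 (median -0.36), as were 7 of the 9 hypothalamic markers (-0.72). Above 0 were 5 of 5 oligodendrocyte (median 0.55), 4 of 5 astrocyte (0.39) and 7 of 9 medial habenula markers (0.17), while the 5 microglia markers had a median of -0.03. The part of these markers in the Cck difference was not tested.

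**Figure D2:**
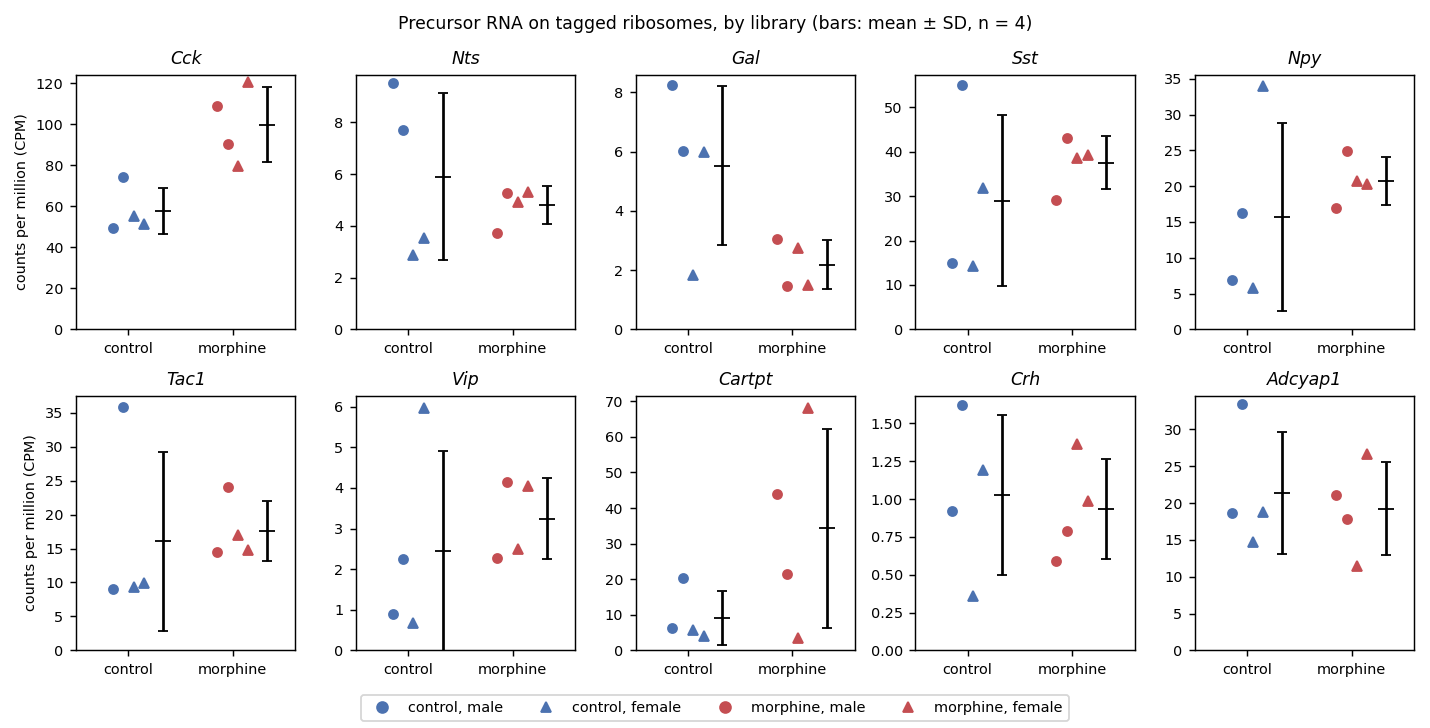
CPM of the 10 precursors in each library, with the group mean and SD beside the points (n = 4); axes start at 0 and circles and triangles mark libraries labelled male and female. Only for Cck do the morphine libraries (79.7 to 120.4 CPM) all lie above the controls (49.5 to 74.4 CPM), while in Sst, Npy, Tac1, Vip, Adcyap1 and Crh a single control library lies above every morphine library.

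Gal, the precursor of galanin, was lower in morphine libraries by a larger factor than any other member. Controls had 8.26, 6.03, 1.82 and 5.97 CPM, and morphine libraries had 3.04, 1.45, 2.73 and 1.48 CPM. Every control other than replicate 5 lay above every morphine library, and control replicate 5 lay among the morphine libraries. Means were 5.52 ± 2.69 and 2.17 ± 0.83 CPM (SD, n = 4), so that Gal was 2.55-fold lower by its log2 fold change of -1.35 (SE 0.41). It did not pass in edgeR (unadjusted P = 0.0066, adjusted P = 0.208), and passed in DESeq2 (adjusted P = 0.0319). Its counts ran from 48 to 322 reads, and the lowest has an exact 95% Poisson interval of 35.4 to 63.6 reads, which covers counting error only. With a library left out, the log2 fold change ran from -1.10 without control replicate 1 (edgeR adjusted P = 0.524) to -1.66 without control replicate 5 (edgeR adjusted P = 0.0589).

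Gal is a hypothalamic peptide gene among other sites, and hypothalamic markers differed widely between libraries. Of 9 such markers, 7 had log2 fold changes below 0. Their sum was 19.1, 42.3, 16.1 and 18.3 CPM in controls and 6.02, 29.8, 25.6 and 3.93 CPM in morphine libraries, with Hcrt and Agrp at 0 in a library each. Morphine replicates 3 and 8 lay below every control and the other two above 3 of the 4 controls, among them replicate 4, which had the lowest Gal level. Sim1, a transcription factor of the paraventricular and supraoptic hypothalamus, had 8.46, 6.03, 4.47 and 6.11 CPM in controls and 1.66, 2.57, 3.38 and 1.69 CPM in morphine libraries. DESeq2 called it lower (DESeq2 adjusted P = 6.8e-05), and edgeR did not call it (edgeR adjusted P = 0.0590). The Sim1 groups did not overlap, and control replicate 5 was the lowest control for Sim1 as for Gal. The part of hypothalamic tissue in the Gal difference was not tested. Galr1, a galanin receptor, was at 7.99 ± 2.63 CPM in controls and 4.68 ± 1.19 CPM in morphine (SD, n = 4; log2 fold change -0.77, SE 0.27, edgeR adjusted P = 0.282).

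Cartpt, which encodes the CART peptides, had the largest log2 fold change and the widest spread of the 10. Controls had 6.41, 20.4, 5.62 and 4.07 CPM, and morphine libraries had 43.9, 21.5, 3.57 and 68.2 CPM. The highest and the lowest library of all 8 were both morphine libraries of female label, replicates 8 and 7, which differed 19.1-fold. Means were 9.12 ± 7.58 and 34.3 ± 28.0 CPM (SD, n = 4), and the log2 fold change of 1.91 (SE 0.71) did not pass (unadjusted P = 0.0211, edgeR adjusted P = 0.313; DESeq2 adjusted P = 0.276). Leaving out morphine replicate 8 gave 1.33, and leaving out control replicate 2 gave 2.68 (edgeR adjusted P = 0.0978). Cartpt was listed as 2 transcript rows, and their sum gave 1.91 again.

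Npy and Vip, the precursors of neuropeptide Y and of vasoactive intestinal peptide, followed each other across the libraries. Npy had 6.85, 16.2, 5.71 and 34.0 CPM in controls and 16.9, 24.98, 20.7 and 20.3 CPM in morphine libraries. Vip had 0.90, 2.25, 0.67 and 5.97 CPM in controls and 2.28, 4.15, 2.50 and 4.05 CPM in morphine libraries. In both genes control replicate 6 was the highest library of all 8 and control replicates 1 and 5 were the lowest. The Pearson's r between them was 0.98 and Spearman's rho 0.98 (log2 CPM, 8 libraries, which share depth and dissection), and r was 0.91 without the 2 libraries farthest from the median. Among genes at a mean of at least 1 CPM, each was the gene most like the other.

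Neither passed the test. The log2 fold change was 0.40 for Npy (SE 0.45, edgeR adjusted P = 0.737) and 0.42 for Vip (SE 0.56, edgeR adjusted P = 0.795). Without control replicate 6 the values were 1.09 and 1.33, without control replicate 5 they were 0.11 and 0.09, and without control replicate 1 they were 0.15 and 0.13. None of these passed (edgeR adjusted P of 0.218 or above). By limma-voom over all 8 libraries the values were 0.77 (SE 0.45) and 0.93 (SE 0.54), which did not pass either (limma adjusted P = 0.517 and 0.524). Vip counts ran from 28 to 220 reads, and 28 reads have an exact 95% Poisson interval of 18.6 to 40.5. Control replicate 6 also had the highest pyramidal marker sum of the controls (358 CPM, the others 100.4 to 138). Morphine replicates 4, 7 and 8 had larger pyramidal sums (607, 431 and 546 CPM) with less Npy and less Vip than control replicate 6, and the part of telencephalic tissue in these levels was not tested.

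Sst and Tac1 were both highest in control replicate 2. Sst, the somatostatin precursor, had 14.8, 55.1, 14.2 and 31.7 CPM in controls and 29.0, 43.0, 38.7 and 39.2 CPM in morphine libraries. Tac1, from which substance P and neurokinin A are cut, had 9.08, 35.9, 9.35 and 9.86 CPM in controls and 14.5, 24.1, 17.0 and 14.8 CPM in morphine libraries. In Tac1 every control other than replicate 2 lay below every morphine library. Log2 fold changes were 0.37 for Sst (SE 0.36, edgeR adjusted P = 0.687) and 0.13 for Tac1 (SE 0.41, edgeR adjusted P = 0.924). Without control replicate 2 they were 0.89 and 0.90 (edgeR adjusted P = 0.116 and 0.0606). Without control replicate 5 they were 0.13 and -0.07, and without control replicate 1 they were 0.14 and -0.07. By limma-voom over all 8 libraries they were 0.58 and 0.36 (limma adjusted P = 0.565 and 0.747). Control replicate 2 also had the highest summed level of 5 astrocyte markers (40.1 CPM, the other libraries 9.49 to 38.1) and of 5 microglia markers (4.86 CPM, the others 0.77 to 2.79). It was the highest control for the 9 hypothalamic markers (42.3 CPM) and for the 6 striatal markers (335 CPM, the other controls 129 to 248). The striatal markers, all 6 with log2 fold changes above 0 and none called (0 at an unadjusted P under 0.05), summed to 106, 875, 706 and 60.4 CPM in morphine replicates 3, 4, 7 and 8. Replicates 4 and 7 also had the highest Tac1 levels of the morphine libraries. The part of these markers in the Sst and Tac1 levels was not tested.

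**Figure D3:**
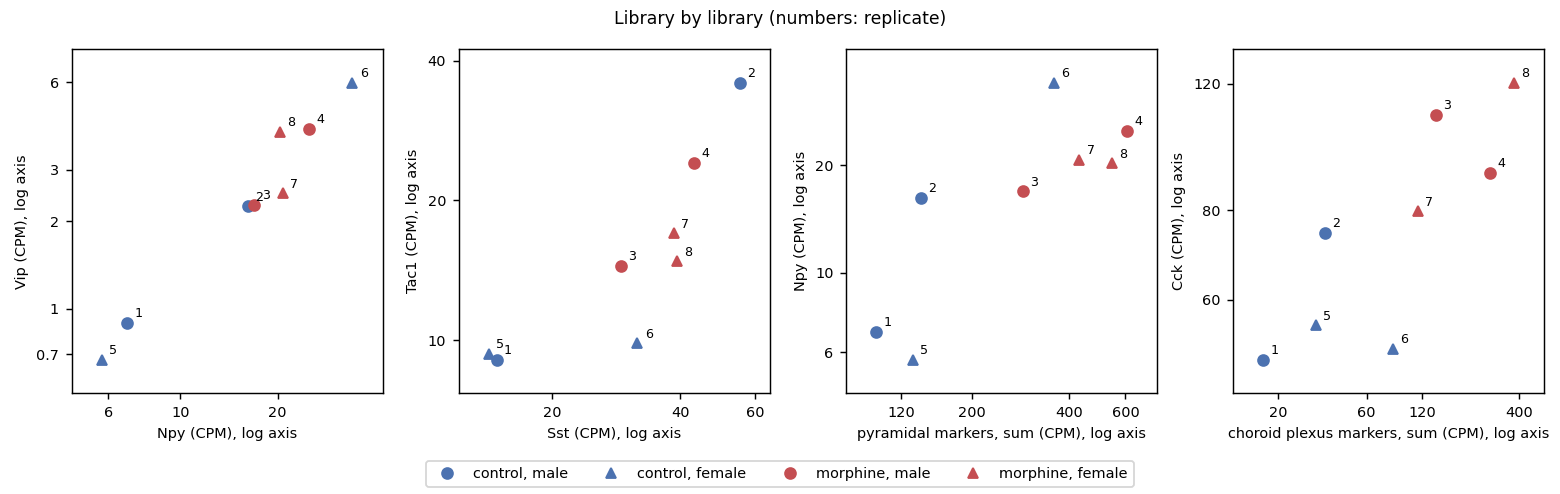
CPM library by library on log axes, with replicate numbers beside the points, for Vip against Npy, Tac1 against Sst, Npy against the summed pyramidal markers and Cck against the summed choroid plexus markers. Vip and Npy rank the libraries almost alike (rho 0.98), control replicate 2 stands highest in Sst and Tac1, and control replicate 6 has the highest Npy (34.0 CPM) at a pyramidal sum of 358 CPM.

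Nts, Adcyap1 and Crh had log2 fold changes below 0 that were smaller than their standard errors. Each rose above 0 in some fit with a library left out, and for Nts the labelled sexes, described below, had opposite signs. Nts, the neurotensin precursor, had 9.51, 7.72, 2.87 and 3.53 CPM in controls and 3.71, 5.27, 4.94 and 5.30 CPM in morphine libraries. The morphine libraries lay inside the control range, with an SD of 0.24 on the log2 scale against 0.83 in controls. Its log2 fold change was -0.30 (SE 0.34, edgeR adjusted P = 0.739), and -0.14 by limma-voom (adjusted P = 0.901).

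Adcyap1, the precursor of PACAP, had 18.6, 33.5, 14.7 and 18.8 CPM in controls and 21.1, 17.8, 11.4 and 26.6 CPM in morphine libraries. The groups overlapped, although control replicate 2 lay above every morphine library and morphine replicate 7 below every control (log2 fold change -0.15, SE 0.28, edgeR adjusted P = 0.863). Crh, the corticotropin-releasing hormone precursor, was the scarcest member at 0.92, 1.62, 0.36 and 1.19 CPM in controls and 0.59, 0.79, 1.36 and 0.99 CPM in morphine libraries. These values rest on 15 to 72 reads, and 15 reads have an exact 95% Poisson interval of 8.40 to 24.7. A Crh difference of the fitted size was not detectable beyond the spread between libraries (log2 fold change -0.14, SE 0.41, edgeR adjusted P = 0.916), and limma-voom gave -0.01 (adjusted P = 0.995).

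To compare levels between genes, CPM were divided by transcript length. The mean over 8 libraries was 113.9 CPM per kb for Cck, 46.1 for Sst, 32.2 for Npy, 26.3 for Cartpt and 13.7 for Tac1. It was 5.99 CPM per kb for Adcyap1, 4.88 for Gal, 4.29 for Nts, 1.86 for Vip and 0.74 for Crh. Of the 9 neighbouring steps in this order, 4 passed an exact two-sided sign-flip permutation test over the 8 libraries after adjustment over the 9 steps. They were Cck above Sst and Tac1 above Adcyap1, each in 8 of 8 libraries, and Nts above Vip and Vip above Crh, each in 7 of 8 (exact adjusted P = 0.0352 for each). Sst lay above Npy in 7 of 8 libraries and missed the threshold (exact adjusted P = 0.0563). On CPM not divided by length, which longer transcripts raise, Tac1 over Adcyap1 turned to a mean log2 ratio of -0.36 and Nts over Vip no longer passed (exact adjusted P = 0.0844). Sst over Npy and Adcyap1 over Gal then passed (exact adjusted P = 0.0352 each). The other 4 steps per kb, from Npy to Cartpt, Cartpt to Tac1, Adcyap1 to Gal and Gal to Nts, were smaller than the spread between libraries (exact adjusted P of 0.301 or above). With the 4 controls alone no step could pass, since the smallest possible P is 0.125, and Tac1 then stood above Cartpt and Gal above Adcyap1. In the 4 morphine libraries alone, Nts (3.85 CPM per kb) stood above Gal (2.76) in 3 of 4. Cartpt had a higher mean there than Npy (41.5 against 36.6 CPM per kb) but was higher in 2 of 4 libraries, and the mean log2 ratio of Cartpt over Npy was -0.45.

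**Figure D4:**
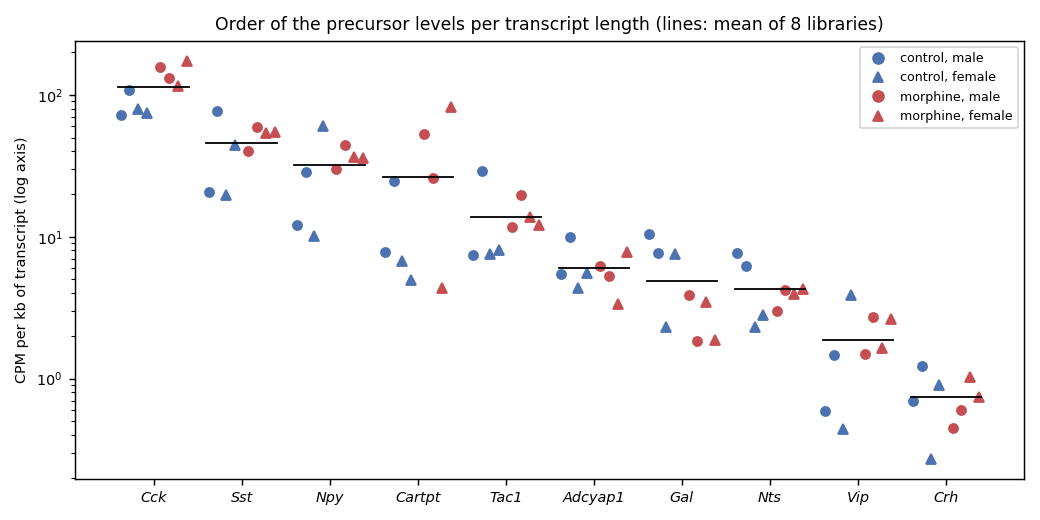
CPM per kb of transcript (log axis) of the 10 precursors in each of the 8 libraries, sorted by the mean over all libraries, which is drawn as a line. Means fall from 113.9 for Cck to 0.74 for Crh, and Cartpt spans the widest range of any member.

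The summed level of the 10 precursors was 134 to 293 CPM per kb in controls and 237 to 376 in morphine libraries, and the ranges overlapped through control replicate 2. Cck held 45.3 ± 11.7% of this sum in controls and 47.6 ± 2.96% in morphine (SD, n = 4). These Cck shares overlapped between the groups, although its levels did not. Cartpt held 5.30 ± 2.49% and 12.5 ± 8.92%. Gal held 7.26, 2.61, 1.72 and 3.57% in controls and 1.25, 0.63, 1.46 and 0.50% in morphine libraries. Adcyap1 held 3.81, 3.37, 3.23 and 2.61% in controls and 2.03, 1.78, 1.42 and 2.09% in morphine libraries. The shares of Gal and of Adcyap1 did not overlap between groups, although their CPM did, and a share depends on the levels of the other 9 members. Such shares were not formed for genes outside the 10, so no background stands beside this. The Adcyap1 level itself had a log2 fold change of -0.15 (SE 0.28).

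Replicates varied more for these genes than for most. The pooled SD of log2 CPM within groups was 0.27 for Cck, at the 72.5th percentile of the 12989 genes with a mean of at least 1 CPM. For the other 9 members it ran from 0.51 for Adcyap1 to 1.499 for Cartpt, each above the 90th percentile of those genes, while their median was 0.19. Crh (0.71), with a mean of 0.98 CPM, was itself not among those genes. Control libraries spread more than morphine libraries in Npy (SD 1.19 against 0.23), Sst (0.94 against 0.25), Vip (1.38 against 0.45) and Nts (0.83 against 0.24). Cartpt had the opposite order (1.01 against 1.87). Differences in spread were not tested.

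Between the labelled sexes no member passed the test (edgeR with condition in the model, adjusted P = 1.00 for every member, where 0.00528% of genes passed). At an unadjusted P under 0.05 there was none in edgeR, against 3.1% of all genes, and 1 in DESeq2, Nts, against 2.71%. With a library left out the edgeR count ran from 0 to 3 members, the highest without morphine replicate 8 (Nts, Cartpt and Adcyap1), against 2.56% to 5.58% of all genes. The members nearest to it were Tac1, with a female minus male log2 fold change of -0.75 (SE 0.35), and Nts, with -0.62 (SE 0.30). Control replicate 2, a male library, held the highest Tac1 level, and the Tac1 value was -0.14 without it. Without control replicate 5, whose labelled sex is in doubt, the Nts value was -0.38 (SE 0.30) and the Tac1 value -0.64 (SE 0.39).

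The morphine difference of mean log2 CPM had opposite signs in the labelled sexes for Nts, Crh (-0.55 in males, 0.46 in females) and Adcyap1 (-0.36 and 0.07). Of these, only Nts had groups that did not overlap in both sexes, and 2.49% of all genes had groups apart in opposite directions in this way. Male controls had 9.51 and 7.72 CPM and male morphine libraries 3.71 and 5.27, whereas female controls had 2.87 and 3.53 CPM and female morphine libraries 4.94 and 5.30. Each of these groups held 2 libraries. The interaction, the morphine log2 fold change in females minus that in males, was 1.62 (SE 0.36). It did not pass over all genes (edgeR adjusted P = 1.00, DESeq2 adjusted P = 0.282). At an unadjusted P under 0.05 the interaction gave 1 member, Nts, against 1.72% of all genes. Without control replicate 5, whose sex is in doubt, a single female control was left, whose spread had to be taken from the other groups. Nts, Npy and Vip were then at an unadjusted P under 0.05, against 1.64% of all genes. Over the 8 fits with a library left out this count ran from 1 to 4 members, Nts in each of them, against 1.42% to 4.45% of all genes. Cck had nearly the same difference of mean log2 CPM in males (0.70) and in females (0.87), with an interaction of 0.23 (SE 0.32, edgeR adjusted P = 1.00).

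**Figure D5:**
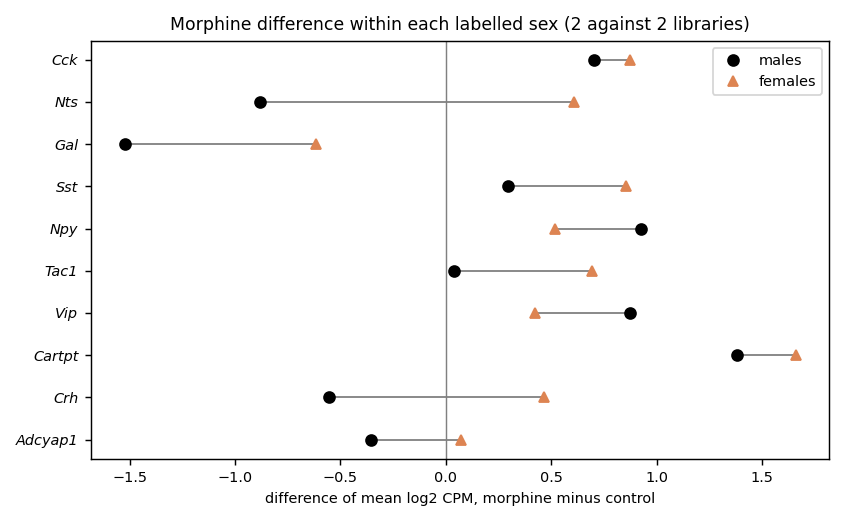
Difference of mean log2 CPM, morphine minus control, in libraries labelled male (circles) and female (triangles), 2 against 2 libraries for each point. Nts lies at -0.88 in males and 0.61 in females, and Cck at 0.70 and 0.87.

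For each member the 3 genes with the most similar pattern were listed by Pearson's r of log2 CPM over the 8 libraries, as a description of these libraries, which share depth and dissection. For Cck they were Mtdh, 6430704M03Rik and Fam19a1 (r of 0.97 to 0.98). For Gal they were Cd247, Ccdc36 and 4930513N10Rik (r of 0.97 each), and for Nts they were Mcat, Ptprm and Fam83h (0.90 to 0.94). For Cartpt they were Nog, Angel1 and Dll3 (0.97 each). Sst was most like Slc1a3, a glial glutamate transporter, Pdgfc and Egfr, with r of 0.96 to 0.97. Npy and Vip shared Id3 after each other, followed by Doc2g and Xylt1 (0.96 to 0.97). Tac1 was most like Wdr54, Ttyh1 and Ggn (0.93 to 0.96), Crh like Sgsm2, Gabrg3 and Efcab6 (0.92 to 0.96), and Adcyap1 like Kcnk3, Igdcc4 and Ppap2a (0.96 to 0.97). Without the 2 libraries farthest from the median, r fell to between 0.74 and 0.82 for the 3 genes listed for Sst. It fell to 0.77 for Nts with Fam83h, 0.75 and 0.84 for Npy with Id3 and Doc2g, and 0.80 and 0.78 for Tac1 with Ttyh1 and Ggn. Among the 45 pairs of members, 4 had r above 0.8: Npy with Vip, Sst with Tac1 (0.84), Cck with Cartpt (0.83) and Sst with Npy (0.80). The lowest value, between Cck and Gal, was -0.62.

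The other genes of peptide signalling were read from the same fit. Of 35 other non-opioid precursors, 33 were in the table and 11 of these had a mean of at least 1 CPM. None was called by edgeR or DESeq2, and at an unadjusted P under 0.05 there were 1 higher and 2 lower. Their median log2 fold change was -0.26. Tac2, the neurokinin B precursor, was the most abundant (11.0 ± 4.33 CPM in controls, 9.21 ± 1.44 in morphine; SD, n = 4), followed by Pmch and Nucb2. The lowest P belonged to Trh, thyrotropin-releasing hormone, with 8.82, 10.6, 2.82 and 7.00 CPM in controls and 0.67, 1.63, 4.32 and 0.39 CPM in morphine libraries (log2 fold change -2.09, SE 0.62, edgeR adjusted P = 0.205). As with Gal, control replicate 5 was the lowest control for Trh. Nms rested on 1 to 10 reads.

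Of the 26 receptors of the member peptides, 19 had a mean of at least 1 CPM, and edgeR called 0 (at an unadjusted P under 0.05, 4 higher and 2 lower), with a median log2 fold change of 0.15. DESeq2 called 2, both higher in morphine libraries. Npy1r, a receptor of neuropeptide Y, had 6.38, 10.02, 8.34 and 7.09 CPM in controls and 11.6, 13.1, 11.8 and 15.05 CPM in morphine libraries, which did not overlap (log2 fold change 0.70, SE 0.16, edgeR adjusted P = 0.112, DESeq2 adjusted P = 0.0046). Sort1, the sorting receptor sortilin that also binds neurotensin, was the most abundant of the list at 197.8 ± 31.0 CPM in controls and 296.7 ± 58.8 CPM in morphine (log2 fold change 0.58, SE 0.16, edgeR adjusted P = 0.161, DESeq2 adjusted P = 0.0297). The lowest Sort1 level in a morphine library (223.8 CPM) lay below that of control replicate 2 (231.1 CPM). Adcyap1r1, the PACAP receptor, was next in abundance and nearly equal between groups (61.7 ± 12.4 and 62.1 ± 15.4 CPM; log2 fold change 0.01, SE 0.18, edgeR adjusted P = 0.987), followed by Sstr3.

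All 10 genes of precursor processing had log2 fold changes above 0, with a median of 0.24, and edgeR called none of them (2 higher at an unadjusted P under 0.05). Cpe, the carboxypeptidase that trims basic residues, was the most abundant at 342 ± 86.3 CPM in controls and 459 ± 81.6 CPM in morphine (SD, n = 4; log2 fold change 0.42, SE 0.18, edgeR adjusted P = 0.363). Pcsk2, a prohormone convertase, and Pam, the amidating enzyme that acts on signals of the kind printed for Cck and Gal, had 0.19 (SE 0.10) and 0.28 (SE 0.21), with edgeR adjusted P of 0.511 and 0.638. Cpd, a carboxypeptidase of the trans-Golgi network, had 29.6, 45.8, 44.0 and 47.4 CPM in controls and 52.4, 66.2, 54.1 and 72.4 CPM in morphine libraries. All its morphine libraries lay above all its controls, and DESeq2 called it (log2 fold change 0.56, SE 0.16, edgeR adjusted P = 0.185, DESeq2 adjusted P = 0.0493). The 10 genes of dense-core vesicle cargo and release had a median of 0.06 with 0 called by either tool and 1 higher at an unadjusted P under 0.05. Among them Cadps (594 ± 106 and 492 ± 26.1 CPM), Ptprn2 and Ptprn were the most abundant and Chgb, chromogranin B (log2 fold change 0.64, SE 0.25, edgeR adjusted P = 0.342), and Scg3 had the lowest P. The 10 peptidases had a median of -0.02, again with 0 called by either tool and 1 higher at an unadjusted P under 0.05. Ide, Prep and Thop1 were the most abundant of these, and Mme, neprilysin (0.47, SE 0.18, edgeR adjusted P = 0.33), and Ace had the lowest P.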

How the data were processed

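The authors deposited whole-number read counts per RefSeq transcript (mm10), made from 50-base paired-end TRAP libraries. The tool behind this table is not given in the sources used here; the study's methods describe Salmon and tximport. Each gene was read from its transcript row with the highest total. PCR copies are not marked, so intervals cover counting error only.

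The main test was the quasi-likelihood test of edgeR 4.0.16, run in R 4.3.3 over 18939 genes after TMM scaling, with Benjamini-Hochberg adjustment. CPM use TMM-scaled totals. Alternatives were DESeq2 1.42.0, limma-voom (limma 3.58.1), RLE and upper-quartile factors, filterByExpr (all 10 members passed), sex in the model, summed transcripts and each library left out in turn. On simulated data for the morphine comparison (18629 genes, 200 changed by a log2 fold change of 1.5), edgeR found 99.5% of the changed genes, and 1.485% of what it called was unchanged. The changed genes were drawn from those with higher counts, and the simulated spread followed the common trend with abundance, not each gene's own spread. Replicates of most members varied more than those of most genes, so these figures do not give the power for the members. Levels between genes used the length of the GENCODE transcript matched to each RefSeq row, the longest where several matched, and exact sign-flip tests over the 8 libraries. Log2 CPM used a prior count of 2, except in the morphine differences within each labelled sex, where 0.5 was added to the CPM before log2.

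The members and lists were chosen with earlier results of these data known. Genes named are all members, those called in each list, otherwise the 3 most abundant and the 2 with the lowest P, and the 3 genes most like each member. Any further gene was chosen after its values were seen. Npy4r, Hid1, Nwd2 and Drd1 were matched by older symbols, and the list genes Iapp and Pyy were not matched. No sequencing batch is given, so no comparison within batches was made.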

Additional observations from a re-analysis of the deposited data

Results flagged for a closer look

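In 20 groups of 4 libraries (10 precursors in 2 conditions), 2 had a library farther from the others than Dixon's 95% limit allows, where chance gives about 1 in 20. Both were control replicate 2. Its Tac1 level was 35.9 CPM with the other controls at 9.08 to 9.86 CPM, and its Cartpt level was 20.4 CPM with the others at 4.07 to 6.41 CPM. The cause was not tested.

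Nts lay lower in both male morphine libraries than in both male controls and higher in both female morphine libraries than in both female controls, of which replicate 5 is of doubtful sex. Groups apart in opposite directions in both sexes were found for 2.49% of all genes. The interaction was 1.62 on the log2 scale, and its test did not pass over all genes (edgeR adjusted P = 1.00).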

How the results depend on the processing

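The count of members that passed between morphine and control was 0 with edgeR, 2 with DESeq2, 1 with sex in the model, and 0 to 1 with a library left out (1 without control replicate 2). Genes called over the whole table were 37 with edgeR, 498 with DESeq2, 110 with sex in the model, 22 with summed transcripts, 14 with filterByExpr, 23 with limma-voom and 0 to 77 with a library left out. DESeq2 called 2 receptors and 1 processing gene where edgeR called 0. Cck, Gal and Cartpt kept the direction of their morphine difference in every fit run, and the cause of the turns below was not tested. With a library left out, the morphine log2 fold change ran from -0.55 to 0.016 for Nts, -0.074 to 0.90 for Tac1, -0.44 to 0.18 for Crh and -0.35 to 0.15 for Adcyap1. The female minus male value ran from -0.26 to 0.048 for Cck, -0.47 to 0.31 for Sst, -0.40 to 0.63 for Npy, -0.40 to 0.85 for Vip and -0.24 to 0.40 for Crh (-0.0039 with filterByExpr). The interaction ran from -0.10 to 0.48 for Cck, -0.52 to 1.39 for Sst, -1.59 to 0.96 for Npy, -0.36 to 1.602 for Tac1, -1.88 to 1.25 for Vip, -1.73 to 2.51 for Cartpt and -0.13 to 1.08 for Adcyap1. Without division by length, the mean log2 ratio of Cartpt over Tac1 was -0.24, that of Tac1 over Adcyap1, which had passed per kb, -0.36 and that of Gal over Nts -0.66. Nts over Vip then lost its call (exact adjusted P = 0.0844). In the 4 controls alone, 0 steps of the order passed, Cartpt over Tac1 was -0.26 and Adcyap1 over Gal -0.028. No paired analysis was possible because the groups share no replicate number. Crh rests on the fewest reads, 15 to 72, and whether depth or the spread between libraries limits it was not tested.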

Other observations

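Ucn, the urocortin precursor, is known to be made together with the CART peptides by cells of the centrally projecting Edinger-Westphal nucleus in the midbrain. It was in the list of other precursors and was singled out here after its values were seen. Ucn was at 0.03, 0.70, 0.19 and 0 CPM in control replicates 1, 2, 5 and 6, and at 1.35, 1.12, 0 and 2.55 CPM in morphine replicates 3, 4, 7 and 8. The morphine libraries with the most Cartpt, replicates 8 and 3, were also those with the most Ucn, and morphine replicate 7 had the lowest level of Cartpt and no Ucn count. Among controls, replicate 2 was the highest for both. The log2 fold change of Ucn did not pass (edgeR adjusted P = 0.377). The part of midbrain tissue in the Cartpt levels was not tested.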
